A study of Homo sapiens with 30 samples.

Results

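Untreated HT, a cultured line derived from diffuse large B cell lymphoma (DLBCL), was set against untreated cultures of 3 other DLBCL lines. The comparison rests on the 3 libraries of HT labelled 0 h and on the 9 libraries of OCI-LY3, OCI-LY19 and SUDHL5 labelled 0 h, 3 per line. These 12 libraries share 1 gene-level table with 12 libraries of the same lines after 24 h in 0.2 µM doxorubicin, an anthracycline, and the series holds 30 libraries in all. Per the labels, all 12 had the genotype WT, no drug and the time 0 h, and their replicates came from independent experiments. HT and OCI-LY3 were kept in RPMI medium with 20% fetal bovine serum, and OCI-LY19 and SUDHL5 in RPMI medium with 15%, so serum goes with the line for OCI-LY19 and SUDHL5. Each line descends from a single tumor, so the comparison describes these 4 cultures and p-values measure only the spread between libraries of a line.

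DLBCL arises from mature B cells, and many of its lines keep a program of the germinal center, the site where B cells mutate their immunoglobulin genes under the repressor BCL6. Leaving that site, B cells turn on IRF4 and PRDM1, which lead toward plasma cells, and lymphomas of the activated B cell type carry part of that second program. B cells also present antigen on MHC class II molecules, whose genes depend on the coactivator CIITA and on factors bound to a shared set of promoter boxes.

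The submitters' read totals, recovered from the FPKM values, were 21785426, 25940053 and 30749594 in the HT libraries, and all 12 libraries lay between 21785426 and 35270765. FPKM is a gene's read number scaled to its length in kilobases and to the read total of the library, and levels below are mean ± SD FPKM over the 3 libraries of a line. All 8 B cell markers examined reached 1 FPKM in HT, where their summed level was 1178 to 1221 FPKM, against 1319 to 1596 in OCI-LY3, 425.3 to 478.1 in OCI-LY19 and 1077 to 1085 FPKM in SUDHL5. Summed T and NK cell markers were at 3.43 to 5.359 FPKM in HT, against 5.364 to 6.117 in OCI-LY3, 24.82 to 28.34 in OCI-LY19 and 113.7 to 119.7 FPKM in SUDHL5. Most of each sum was the T cell receptor gene TRAC, at 18.85 FPKM in OCI-LY19 and 112.3 FPKM in SUDHL5. Of these 8 markers, 1 reached 1 FPKM in HT, 1 in OCI-LY3, 2 in OCI-LY19 and 3 in SUDHL5. CD2, CD8A and GNLY were near 0 in every line, so the sums do not measure T or NK cell content. The 7 myeloid markers summed, which leave out CD33 at 8.78 ± 0.575 FPKM in HT, came to at most 0.4637 FPKM and stromal, epithelial and endothelial markers to at most 0.0744 FPKM in any HT library. The libraries labelled OCI-LY3, a line widely used as an activated B cell model, had IRF4 at 0.171 ± 0.199, PRDM1 at 0.00377 ± 0.00654 and BCL6 at 78.2 ± 6.24 FPKM. The OCI-LY19 libraries had RAG1 at 64.5 ± 6.30, DNTT at 129 ± 42.4 and VPREB1 at 159 ± 22.3 FPKM, genes of early B cell precursors. For OCI-LY3 these values are unlike an activated B cell line, and whether the libraries are of the lines their labels name was not tested. The names below are those of the labels, and differences from each line are given separately. The median SD of log2(FPKM + 1) between replicates was 0.093 in HT, against 0.115 in OCI-LY3, 0.104 in OCI-LY19 and 0.052 in SUDHL5. The labels give independent experiments for SUDHL5 too. Whether its libraries are as separate as those of the other lines was not tested. For each gene the model pools the spread of all 12 libraries, so p-values of every contrast rest in part on that label. A lane-like suffix in the library names was L6 for every HT library and L3 for every SUDHL5 library. It was L5, L4 and L4 in OCI-LY3 and L6, L5 and L4 in OCI-LY19, and its meaning is not stated. For SUDHL5 it cannot be told apart from the line. No OCI-LY3 library shares the suffix of HT. With the suffix as a covariate, HT is therefore compared with OCI-LY3 only through the OCI-LY19 libraries.

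Of 15650 genes with at least 1 FPKM in at least 3 of the 12 libraries, 6847 (43.8%) were higher and 4505 (28.8%) lower in HT than in the mean of the 3 other lines. A gene was called where limma's moderated test on log2(FPKM + 1) gave p below 0.05 after Benjamini-Hochberg adjustment across the whole set of genes tested. Every difference below is a log2 difference of HT minus the other, ± its standard error, on that scale. The scale understates the change of genes near 1 FPKM. Against single lines, 6812 genes (43.5%) were higher and 3656 (23.4%) lower than in OCI-LY3, 6029 (38.5%) higher and 4677 (29.9%) lower than in OCI-LY19, and 6727 (43.0%) higher and 4496 (28.7%) lower than in SUDHL5. All 4 contrasts use the same HT libraries, so their counts are not independent of each other. Higher genes made up 60.3% of the calls against the mean, and 46.8% when libraries were scaled by the median of their ratios, 52.1% after quantile normalization, 65.1% on the TPM scale and 64.3% for recovered reads. Against OCI-LY3, OCI-LY19 and SUDHL5 that share was 65.1%, 56.3% and 59.9% in the FPKM fit, and 49.0%, 49.1% and 49.6% with median-of-ratios scaling. The median difference of all genes tested was 0.12 from the mean, 0.16 from OCI-LY3, 0.08 from OCI-LY19 and 0.14 from SUDHL5. Medians of gene groups below are read beside these values. Counts of group members are read beside the shares of all genes given above for the same contrast.

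A stricter class held the genes that stood apart from each line: past the test against OCI-LY3, OCI-LY19 and SUDHL5 alike, in the same direction, and by at least 1 log2 unit each time. Without the size rule, 2891 genes (18.5%) were higher and 1124 (7.18%) lower in HT than in each line. With it there were 455 genes higher in HT (2.91% of genes tested) and 218 lower (1.39%). These 2 counts depend on the scale, with 692 and 346 on the TPM scale and 705 and 565 for recovered reads, and 483 lower with a pseudocount of 0.1. The 3 HT libraries lay above all 9 others for 3065 genes (19.6%) and below them for 1317 (8.42%).

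Several of the genes with the largest positive differences are known from tissues other than B cells. ACTL8 (actin-like 8, normally a testis gene; ENSG00000117148.8, chr1:17755313-17827063, GENCODE 29 on GRCh38) had 214, 201 and 206 FPKM in the HT libraries, against 0.0207, 0 and 0.106 FPKM in OCI-LY3, 0.292, 0.212 and 0.229 FPKM in OCI-LY19 and 0.0412, 0.0418 and 0 FPKM in SUDHL5. All 3 HT libraries were high and the 9 others were near 0. The difference from the mean of the lines was 7.56 ± 0.048 (limma adjusted p = 7.8e-15). C11orf97 (chr11:94512432-94532123) had 71.6, 67.0 and 75.8 FPKM in the HT libraries, against 0, 0 and 0 FPKM in OCI-LY3, 0.0844, 0 and 0 FPKM in OCI-LY19 and 0, 0 and 0 FPKM in SUDHL5, so that a single library outside HT held any of its reads. TBXT, which encodes the mesoderm transcription factor brachyury (chr6:166157656-166168700), had 36.6, 28.9 and 36.3 FPKM in the HT libraries, against 0, 0.0291 and 0 FPKM in OCI-LY3, 0.0109, 0 and 0 FPKM in OCI-LY19 and 0, 0 and 0 FPKM in SUDHL5. CAPN13, a calpain protease gene (chr2:30722771-30820542), averaged 44.5 ± 3.51 FPKM in HT, with 0.00732 ± 0.00730 in OCI-LY3, 0.0439 ± 0.0342 in OCI-LY19 and 0.00248 ± 0.00429 in SUDHL5. IGF2BP1, an RNA-binding protein of fetal tissue (chr17:48997412-49055650), averaged 15.7 ± 1.61 FPKM in HT, against 0.00196 ± 0.00340 in OCI-LY19, and was listed at 0 in every OCI-LY3 and SUDHL5 library. None of the 18 cancer-testis antigen genes listed, the MAGE, GAGE and related families, had enough signal in these libraries to be tested.

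Neighbouring genes appeared among those high in HT. The somatostatin receptor gene SSTR1 (chr14:38207999-38213067) and CLEC14A, a lectin gene of endothelial cells (chr14:38254103-38256369), lie side by side on chromosome 14. SSTR1 had 25.04, 22.2 and 26.2 FPKM in the HT libraries, against 0, 0 and 0 FPKM in OCI-LY3, 0.0323, 0 and 0 FPKM in OCI-LY19 and 0, 0.0176 and 0 FPKM in SUDHL5. CLEC14A averaged 11.5 ± 0.878 FPKM in HT, against 0 ± 0 in OCI-LY3, 0.00451 ± 0.00782 in OCI-LY19 and 0 ± 0 in SUDHL5. On chromosome 20 the receptor tyrosine phosphatase gene PTPRT (chr20:42072752-43189970, minus strand) and the non-coding PTPRT-DT (chr20:43190101-43202599, plus strand) start close together and run in opposite directions. This pair was chosen after its values were seen. PTPRT had 15.5, 16.4 and 14.5 FPKM in the HT libraries, against 0.00295, 0.0117 and 0.00302 FPKM in OCI-LY3, 0.0110, 0 and 0 FPKM in OCI-LY19 and 0.343, 0.337 and 0.361 FPKM in SUDHL5. PTPRT-DT had 11.5, 13.0 and 12.4 FPKM in the HT libraries, against 0, 0 and 0 FPKM in OCI-LY3, 0, 0 and 0 FPKM in OCI-LY19 and 0.280, 0.126 and 0.151 FPKM in SUDHL5. Both genes of the pair were high in every HT library, and SUDHL5 alone held a low level of each in every library. Differences of PTPRT from OCI-LY3, OCI-LY19 and SUDHL5 were 4.03 ± 0.054, 4.04 ± 0.054 and 3.61 ± 0.054. The promoter windows of ACTL8 and PTPRT (RefSeq, GRCh38.p14; 250 bases before to 50 bases after the start, on the gene's strand) are printed because these 2 HT-high genes have unlike promoters; capitals mark CG dinucleotides. ACTL8 lies at chr1:17755083-17755382 and PTPRT at chr20:43189857-43190156.
ACTL8: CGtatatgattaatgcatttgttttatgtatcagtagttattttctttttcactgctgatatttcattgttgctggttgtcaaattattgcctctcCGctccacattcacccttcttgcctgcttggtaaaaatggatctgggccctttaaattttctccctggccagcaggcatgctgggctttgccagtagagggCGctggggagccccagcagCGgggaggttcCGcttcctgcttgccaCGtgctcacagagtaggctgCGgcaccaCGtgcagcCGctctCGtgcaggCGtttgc
PTPRT: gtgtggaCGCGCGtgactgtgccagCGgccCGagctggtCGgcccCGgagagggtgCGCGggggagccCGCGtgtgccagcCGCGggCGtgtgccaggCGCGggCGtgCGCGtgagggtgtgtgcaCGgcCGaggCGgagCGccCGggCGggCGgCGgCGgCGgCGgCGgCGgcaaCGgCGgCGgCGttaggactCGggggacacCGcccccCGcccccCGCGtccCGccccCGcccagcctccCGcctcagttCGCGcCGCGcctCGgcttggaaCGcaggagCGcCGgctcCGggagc
The PTPRT window holds 53 CG and the ACTL8 window 11, against a median of 14 (quartiles 4 and 28) over 35116 promoter windows of the same length.

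The other genes chosen by the naming rule were also near 0 outside HT. KCNQ1, a potassium channel gene, averaged 14.9 ± 1.63 FPKM in HT, with differences from OCI-LY3, OCI-LY19 and SUDHL5 of 3.97 ± 0.071, 3.97 ± 0.071 and 3.96 ± 0.071. BAIAP2L1, a regulator of the actin cortex, averaged 13.7 ± 3.89 FPKM in HT, with differences of 3.79 ± 0.15, 3.68 ± 0.15 and 3.83 ± 0.15 in the same order. CUEDC1, which has a ubiquitin-binding CUE domain, averaged 15.3 ± 1.48, PRR15L 21.9 ± 5.24 and KIAA1217 12.5 ± 1.64 FPKM in HT, and no line mean of the 3 exceeded 0.284 FPKM elsewhere. All 12 of these HT-high genes again stood apart from each line, and higher, in the 24 h libraries of the drug-treated cultures. ACTL8 then had 155, 186 and 124 FPKM in HT, against at most 0.327 FPKM in any other line's library. Across all genes, 280 of the 455 genes higher at 0 h (61.5%) were among the 447 higher at 24 h (62.6% of those). These are bulk measurements, in which fewer cells with a transcript and less transcript per cell cannot be told apart.

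**Figure D1:**
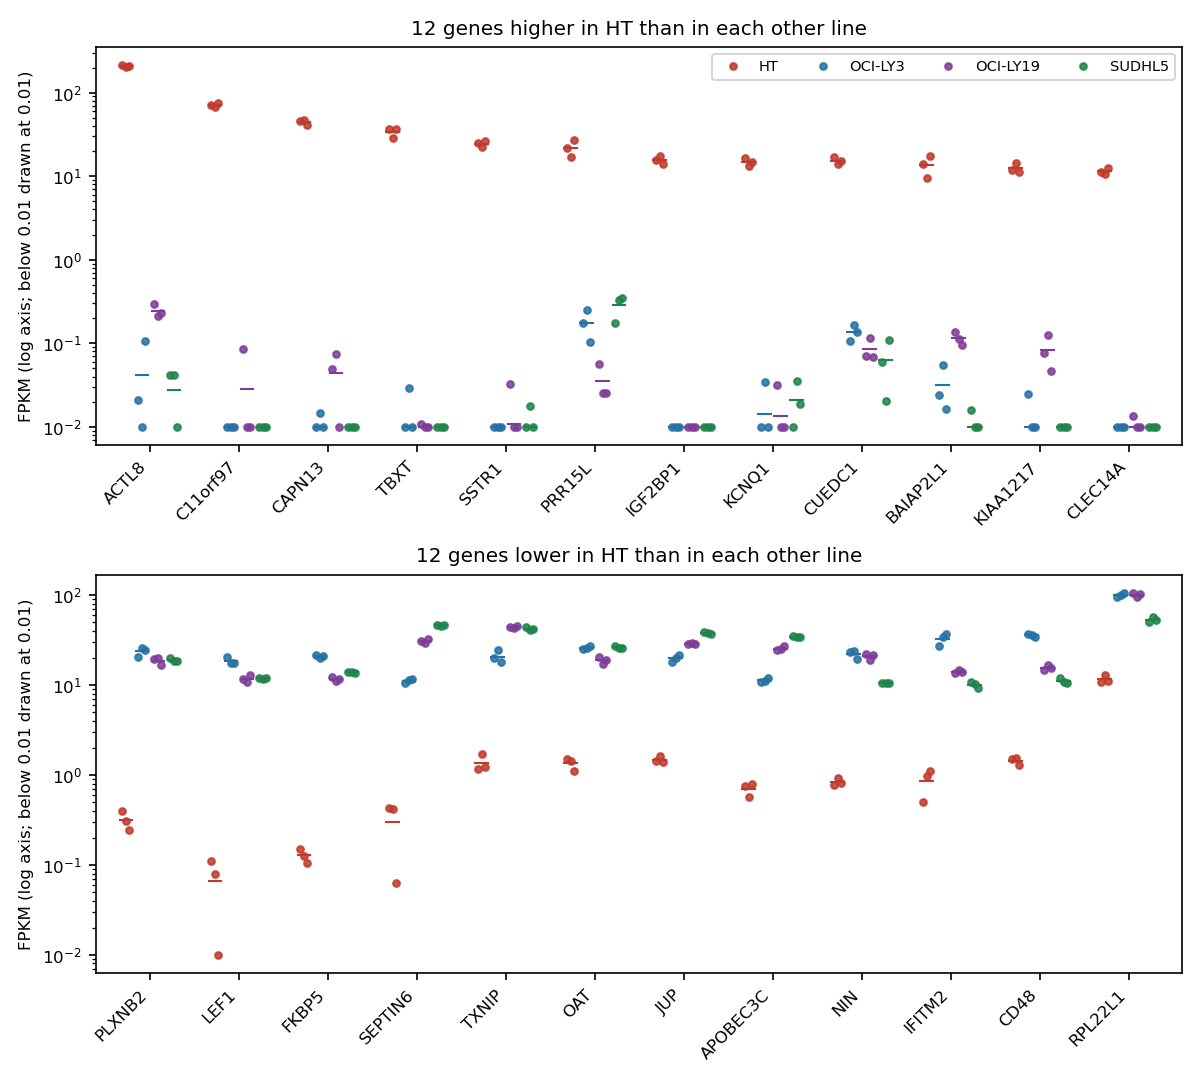
FPKM of the 12 HT-high and 12 HT-low genes chosen by the naming rule, in each of the 12 untreated libraries, on a log axis with values below 0.01 drawn at 0.01. Each point is 1 library, short lines are means and colours mark the lines, HT first. The HT points of ACTL8 sit between 201 and 214 FPKM. In none of the 24 genes do HT points overlap those of another line, which the rule required.

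Genes low in HT and present in all 3 other lines included surface receptors, signalling genes and a cochaperone. PLXNB2, a receptor for semaphorins (chr22:50274979-50307627), had 0.397, 0.307 and 0.241 FPKM in the HT libraries, against 20.8, 26.2 and 24.5 FPKM in OCI-LY3, 19.3, 19.8 and 17.0 FPKM in OCI-LY19 and 20.0, 18.7 and 18.5 FPKM in SUDHL5. Every HT library was at or below 0.397 FPKM and every other library at or above 17.0 FPKM. The difference from the mean was -4.02 ± 0.072 (limma adjusted p = 5.3e-12). FKBP5, a cochaperone of the glucocorticoid receptor and a classic target of it (chr6:35573585-35728583), had 0.151, 0.127 and 0.104 FPKM in the HT libraries, against 21.8, 20.0 and 21.0 FPKM in OCI-LY3, 12.2, 11.02 and 11.8 FPKM in OCI-LY19 and 14.1, 14.2 and 13.7 FPKM in SUDHL5. LEF1, a transcription factor of Wnt signalling (chr4:108047545-108168956), averaged 0.0655 ± 0.0539 FPKM in HT, against 18.6 ± 1.65 in OCI-LY3, 11.8 ± 1.08 in OCI-LY19 and 11.9 ± 0.134 in SUDHL5. SEPTIN6, a cytoskeletal septin, averaged 0.301 ± 0.206 FPKM in HT, against 11.1 ± 0.618 in OCI-LY3, 30.8 ± 1.84 in OCI-LY19 and 46.3 ± 0.803 in SUDHL5. TXNIP, an inhibitor of thioredoxin and of glucose uptake, averaged 1.37 ± 0.311 FPKM in HT, against 20.8 ± 3.31 in OCI-LY3, 44.4 ± 0.666 in OCI-LY19 and 42.3 ± 1.70 in SUDHL5. The naming rule took only genes without overlap between HT and the other libraries, so the lack of overlap for these 5 genes is no separate result.

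The remaining 7 genes had smaller margins by the measure of the rule, the smallest difference from any line, though not against every single line. JUP, the junction protein plakoglobin, differed from OCI-LY3, OCI-LY19 and SUDHL5 by -3.07 ± 0.066, -3.59 ± 0.066 and -3.97 ± 0.066, and OAT, ornithine aminotransferase, by -3.53 ± 0.079, -3.09 ± 0.079 and -3.55 ± 0.079. NIN, a centrosome protein, differed by -3.66 ± 0.083, -3.58 ± 0.083 and -2.65 ± 0.083 in the same order. The antiviral genes APOBEC3C, a cytidine deaminase, and IFITM2, a membrane protein that blocks virus entry, averaged 0.701 ± 0.116 and 0.866 ± 0.320 FPKM in HT. Both belong to families of near-identical copies, so their counts are uncertain. RPL22L1, the paralog of ribosomal protein RPL22, averaged 11.6 ± 1.14 FPKM in HT, against 101 ± 5.65 in OCI-LY3, 101 ± 5.69 in OCI-LY19 and 53.4 ± 3.47 in SUDHL5. CD48, a ligand of SLAM-family receptors on T and NK cells, averaged 1.45 ± 0.138 FPKM in HT, against 35.7 ± 1.27 in OCI-LY3, 15.7 ± 0.885 in OCI-LY19 and 11.2 ± 0.722 in SUDHL5. CD48 was the 1 gene of the 24 that did not stand apart from each line at 24 h. Among all genes, 150 of the 218 lower at 0 h (68.8%) were also among the 263 lower at 24 h (57.0% of those).

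The annotated gene end of PLXNB2 and its RefSeq start differ, and the RefSeq window (chr22:50301620-50301919, minus strand) is printed because PLXNB2 came first among the HT-low genes of the rule; CG is again in capitals.
PLXNB2: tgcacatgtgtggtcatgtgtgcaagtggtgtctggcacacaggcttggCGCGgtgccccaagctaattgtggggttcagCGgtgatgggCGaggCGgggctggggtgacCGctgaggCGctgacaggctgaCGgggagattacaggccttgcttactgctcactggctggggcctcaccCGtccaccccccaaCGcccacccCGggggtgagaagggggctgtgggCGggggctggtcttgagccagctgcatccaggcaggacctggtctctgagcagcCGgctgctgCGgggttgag
It holds 14 CG, the median of all windows.

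Differences between HT and the other lines were uneven along the chromosomes. In windows of 5 Mb with at least 20 tested genes, 280 in all, the median difference was at least 0.5 against each of the 3 lines in 6 windows and at most −0.5 against each in 1. The threshold was chosen with earlier results of these data known, copy number was not measured, and no test was made. On chromosome 11 the window from 110 to 115 Mb held 27 tested genes, with medians of 1.22 against OCI-LY3, 1.30 against OCI-LY19 and 1.22 against SUDHL5, and 13 of its genes stood apart from each line and higher. The window from 115 to 120 Mb had medians of 1.18, 1.20 and 0.65 over 62 genes, 21 of them apart, and the window from 105 to 110 Mb had 0.62, 0.61 and 0.92 over 20 genes. On chromosome 10 the windows from 65 to 70 Mb and from 70 to 75 Mb had medians of 1.37, 0.90 and 1.13 over 23 genes and 1.11, 0.90 and 0.91 over 67 genes. The sixth window, 65 to 70 Mb of chromosome 17, had 0.64, 1.19 and 0.66 over 32 genes. Together the 6 windows held 70 of the HT-high genes that stood apart, which is 30.3% of their 231 tested genes and 15.7% of the 447 with a position. The windows were chosen by these differences, so the share is a description only. The highest of the other windows reached 0.461 in its smallest median, and with median-of-ratios scaling the windows at 65 and 70 Mb of chromosome 10 and at 110 Mb of chromosome 11 stayed above 0.5, while the others had 0.365 to 0.472. The single low window, 65 to 70 Mb of chromosome 2, had medians of −0.72, −0.59 and −0.56 over 25 genes.

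Of the genes within these windows, ZW10, SIRT1 and DDX50 are given because their levels in the other 3 lines were close to each other; they were chosen after their values were seen. ZW10, a kinetochore and vesicle transport protein (chr11:113733187-113773811), had 44.9, 44.5 and 48.1 FPKM in the HT libraries, against 13.3, 13.0 and 13.4 FPKM in OCI-LY3, 13.2, 12.8 and 12.2 FPKM in OCI-LY19 and 10.97, 11.3 and 10.9 FPKM in SUDHL5. On chromosome 10 the deacetylase gene SIRT1 (chr10:67884669-67918390) had 38.4, 38.7 and 40.1 FPKM in the HT libraries, against 9.38, 8.95 and 7.85 FPKM in OCI-LY3, 11.3, 10.4 and 10.8 FPKM in OCI-LY19 and 12.2, 12.6 and 13.1 FPKM in SUDHL5. Each was higher in every HT library than in every other, by 1.81 ± 0.037 and 1.79 ± 0.050 against the mean of the lines. DDX50, an RNA helicase, averaged 70.6 ± 4.56 FPKM in HT, against 24.6 ± 1.64 in OCI-LY3, 26.3 ± 0.517 in OCI-LY19 and 25.7 ± 0.533 in SUDHL5. The 6 windows also held 12 tested members of the gene lists, of which 3 stood apart and higher and 0 stood apart and lower. The 3 were POU2AF1, IL10RA and SDHD, and SDHD, a succinate dehydrogenase subunit, averaged 59.4 ± 1.77 FPKM in HT, against 26.1 ± 1.35 in OCI-LY3, 25.2 ± 0.999 in OCI-LY19 and 20.4 ± 0.976 in SUDHL5. Levels of POU2AF1 and IL10RA differed widely among the other lines, and DDIT4, in the 70 Mb window of chromosome 10, was not higher in HT than in any line. At 24 h the 110 Mb window of chromosome 11 had medians of 1.39, 1.69 and 1.33, and the 65 Mb window of chromosome 10 had 1.36, 1.28 and 1.62. Each of the 6 windows again had a median of at least 0.507 against each line, whereas the low window of chromosome 2 had −0.57, −0.44 and −0.31 and was no longer below −0.5 against each.

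**Figure D2:**
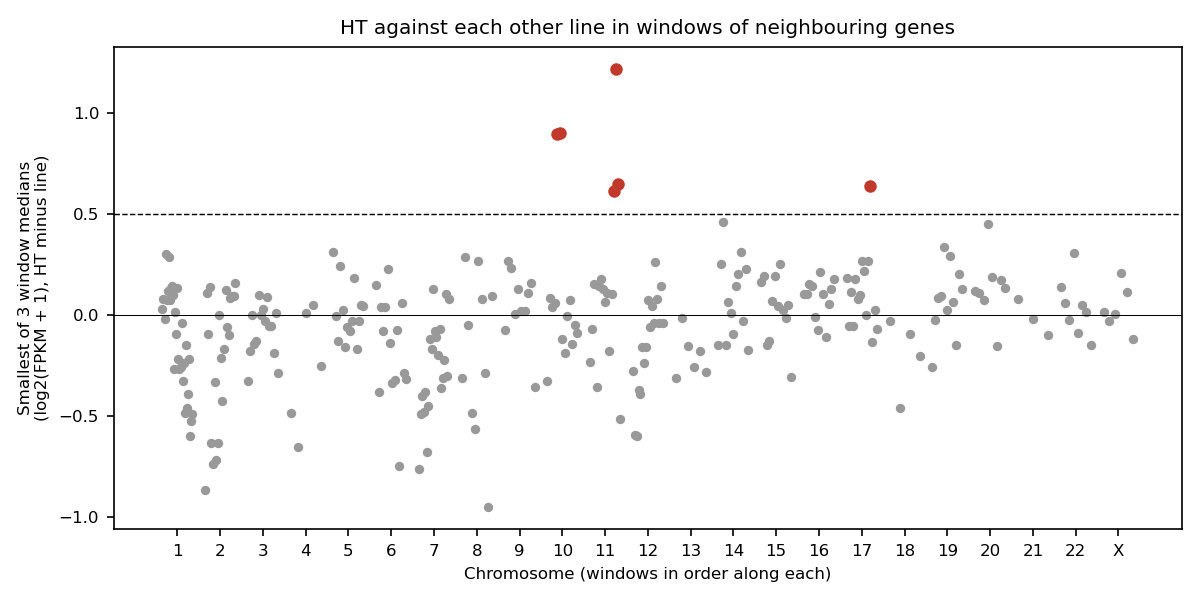
Smallest of the 3 median log2 differences (HT minus OCI-LY3, OCI-LY19 or SUDHL5) in each of 280 windows of 5 Mb, in order along each chromosome; each point is 1 window and the dashed line marks 0.5. Red points are the 6 windows at or above 0.5, of which 2 lie on chromosome 10, 3 on chromosome 11 and 1 on chromosome 17.

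HT transcribed the mu heavy chain and the kappa light chain. IGHM, the mu constant region (chr14:105851705-105856218), had 318, 320.2 and 303 FPKM in the HT libraries, against 0, 0.223 and 0.0209 FPKM in OCI-LY3, 0.197, 0 and 0 FPKM in OCI-LY19 and 887, 883 and 863 FPKM in SUDHL5. It was high in HT and SUDHL5 and near 0 in OCI-LY3 and OCI-LY19. IGKC, the kappa constant region (chr2:88857161-88857683), had 2996, 3091 and 2937 FPKM in the HT libraries, against 2157, 1977 and 1897 FPKM in OCI-LY3, 18.4, 17.5 and 19.2 FPKM in OCI-LY19 and 0.145, 0 and 0 FPKM in SUDHL5. HT was higher than each line, by 0.58 ± 0.067, 7.28 ± 0.067 and 11.49 ± 0.067. With a pseudocount of 0.1 the difference of IGKC against OCI-LY3 was also 0.58, with a limma adjusted p of 0.082. IGHD, the delta constant region, averaged 11.9 ± 3.62 FPKM in HT, against 0.0148 ± 0.0256 in OCI-LY3, 0.0111 ± 0.0192 in OCI-LY19 and 20.4 ± 1.28 in SUDHL5, in the same 2 lines as IGHM. The gamma and alpha constant regions averaged at most 0.187 FPKM in HT, whereas OCI-LY3 had IGHG4 at 160.0 ± 17.4, OCI-LY19 had IGHG2 at 36.0 ± 2.24 and SUDHL5 had IGHA2 at 43.5 ± 1.26 FPKM. A kappa variable segment and a heavy chain segment, chosen after their values were seen, were listed at or near 0 outside HT. IGKV3-11 averaged 2011 ± 157 FPKM in HT, with at most 1.52 FPKM in any other library, and IGHV3-53 averaged 14.9 ± 3.28 FPKM in HT, with at most 0.0993 elsewhere; variable segments have near-identical copies, so these levels are uncertain.

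Genes around the immunoglobulin chains did not move as a unit. JCHAIN, the joining chain of IgM and IgA polymers, had 158, 178 and 196 FPKM in the HT libraries, against 407, 423 and 401 FPKM in OCI-LY3, 0.147, 0.202 and 0.322 FPKM in OCI-LY19 and 83.9, 82.2 and 81.9 FPKM in SUDHL5, which is lower in HT than in OCI-LY3 and higher than in OCI-LY19 and SUDHL5. VPREB3, a chaperone-like protein of the assembling receptor, averaged 456 ± 39.4 FPKM in HT, against 167 ± 3.85 in OCI-LY3, 16.3 ± 2.34 in OCI-LY19 and 34.9 ± 2.56 in SUDHL5. It stood apart from each line, with differences of 1.44 ± 0.10, 4.73 ± 0.10 and 3.67 ± 0.10. IGLL1, the lambda5 part of the surrogate light chain, had 326, 311 and 344 FPKM in the HT libraries, against 0.255, 0.253 and 0.0436 FPKM in OCI-LY3, 377, 636 and 511 FPKM in OCI-LY19 and 2.29, 2.23 and 2.28 FPKM in SUDHL5. HT and OCI-LY19 held high levels of it, yet VPREB1, its partner in the surrogate chain, was listed at 0 in all 3 HT libraries and had 141, 153 and 184 FPKM in OCI-LY19. The recombination genes RAG1, RAG2 and DNTT were at or below 0.211 FPKM in every HT library. IGLL5 stood apart and higher at 55.4 ± 8.47 FPKM in HT, but it overlaps IGLC1, which was listed at 0 in all libraries, and its count is uncertain. In the list of 18 tested immunoglobulin, joining and surrogate chain genes, 7 were higher and 10 lower than the mean of the lines.

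**Figure D3:**
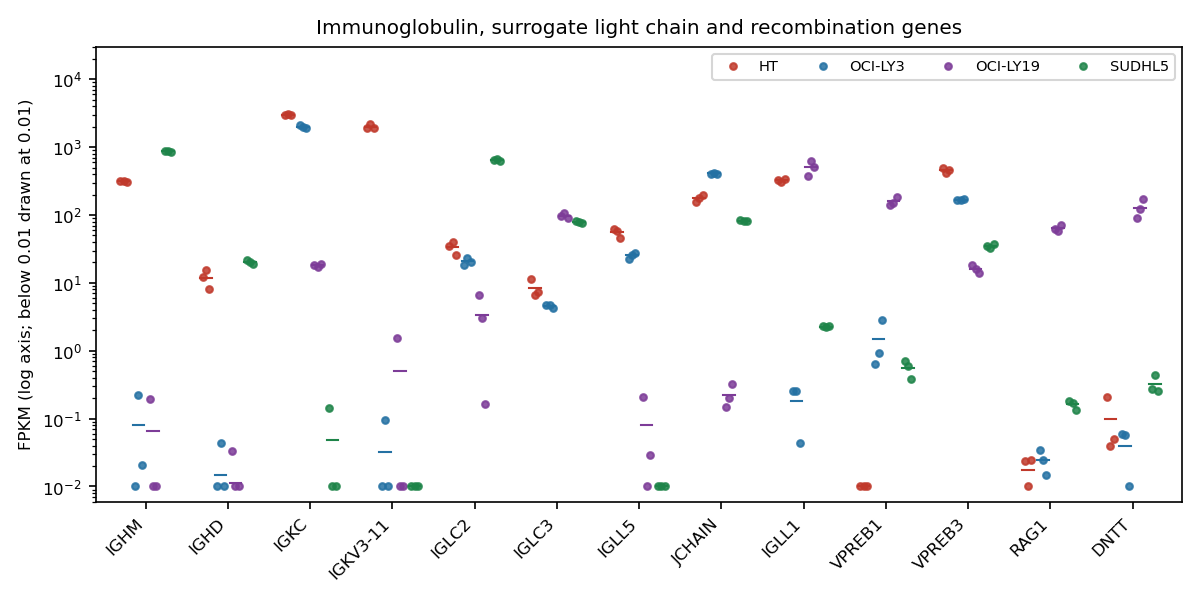
FPKM of immunoglobulin constant and variable genes, the joining chain, surrogate light chain and recombination genes in the 12 untreated libraries, on a log axis with values below 0.01 drawn at 0.01; points are libraries, short lines are means and colours mark the lines, HT first. IGHM, IGKC and IGLL1 are high in all 3 HT libraries, while VPREB1, listed at 0 there, is drawn at 0.01.

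BCL6 was high in HT, and IRF4 and PRDM1 were near 0. BCL6 (chr3:187721377-187745727) had 127, 128 and 138 FPKM in the HT libraries, against 79.4, 83.7 and 71.4 FPKM in OCI-LY3, 2.22, 1.48 and 1.08 FPKM in OCI-LY19 and 104, 103 and 100.4 FPKM in SUDHL5. HT was above every other library, with differences of 0.74 ± 0.13, 5.69 ± 0.13 and 0.35 ± 0.13 from OCI-LY3, OCI-LY19 and SUDHL5. The last of these (limma adjusted p = 0.028) lost its call without HT replicate 2 or 3 and without any 1 SUDHL5 library, at 0.31 to 0.37. The difference from OCI-LY3 did not pass with the library-name suffix as a covariate, at 0.21. IRF4 (chr6:391739-411447) had 0.156, 0.229 and 0 FPKM in the HT libraries, against 0.0390, 0.399 and 0.0732 FPKM in OCI-LY3, 2.98, 2.79 and 3.99 FPKM in OCI-LY19 and 0.00646, 0.0131 and 0.0139 FPKM in SUDHL5, and only the difference from OCI-LY19, -1.91 ± 0.13, passed. PRDM1, the plasma cell repressor Blimp-1, averaged 0.00381 ± 0.00659 FPKM in HT, against 0.00377 ± 0.00654 in OCI-LY3, 4.68 ± 0.638 in OCI-LY19 and 0.114 ± 0.0184 in SUDHL5. Of 25 tested germinal center genes, 16 were higher and 6 lower than the mean (background 43.8% and 28.8%), with a median difference of 0.67. The split was 12 and 11 against OCI-LY3, 19 and 4 against OCI-LY19, and 9 and 11 against SUDHL5, with medians of 0.02, 2.18 and −0.09, so the balance came from OCI-LY19; the signs against OCI-LY3 and SUDHL5 turned under another scaling.

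Single germinal center genes departed from the group. SERPINA9, a protease inhibitor of germinal center B cells, averaged 127 ± 9.64 FPKM in HT, against 54.4 ± 17.1 in OCI-LY3, 0.0570 ± 0.0465 in OCI-LY19 and 68.1 ± 1.68 in SUDHL5. GNA13, a G protein that keeps B cells within the center, averaged 109 ± 3.13 FPKM in HT, against 71.6 ± 3.06 in OCI-LY3, 19.5 ± 0.830 in OCI-LY19 and 39.2 ± 0.392 in SUDHL5. HT exceeded each line, by 0.60 ± 0.046, 2.43 ± 0.046 and 1.45 ± 0.046. GNA13 lies in the 65 Mb window of chromosome 17, whose median was also higher in HT than in each line. S1PR2, the receptor upstream of GNA13, averaged 44.6 ± 1.77 FPKM in HT, against 74.9 ± 6.71 in OCI-LY3, 0.108 ± 0.0682 in OCI-LY19 and 83.5 ± 1.33 in SUDHL5, and was lower in HT than in OCI-LY3 and SUDHL5. ASB13 had 0.0153, 0.0257 and 0.0108 FPKM in the HT libraries, against 20.2, 18.8 and 23.4 FPKM in OCI-LY3, 2.05, 2.20 and 2.17 FPKM in OCI-LY19 and 48.9, 49.5 and 45.3 FPKM in SUDHL5, near 0 in HT and the only germinal center gene that stood apart and lower. LMO2, a transcription cofactor often used to mark this subtype, averaged 0.0292 ± 0.0255 FPKM in HT, against 1.09 ± 0.452 in OCI-LY3, 15.0 ± 2.58 in OCI-LY19 and 4.30 ± 0.270 in SUDHL5, lower in HT than in each, though with the suffix covariate the difference from OCI-LY3 did not pass, at −0.55. Among 20 tested activated B cell and plasmablast genes, 5 were higher and 14 lower than the mean (background 43.8% and 28.8%), with a median of −0.67. The split was 5 and 8 against OCI-LY3, 6 and 11 against OCI-LY19, and 5 and 9 against SUDHL5. The medians were −0.007, −0.56 and −0.13 in the same order. BCL2, the anti-apoptotic founder of its family, averaged 0.230 ± 0.0715 FPKM in HT, against 21.8 ± 3.18 in OCI-LY3, 21.98 ± 0.621 in OCI-LY19 and 0.307 ± 0.0207 in SUDHL5, low in HT and SUDHL5. STAT3, a cytokine-activated transcription factor counted in the same list, was higher in HT than in each line at 25.3 ± 0.922 FPKM, with differences of 2.26 ± 0.067, 1.77 ± 0.067 and 0.75 ± 0.067.

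Genes of B cell identity were mostly higher in HT than in OCI-LY19 and SUDHL5 and divided against OCI-LY3. Of 23 tested, 15 were higher and 3 lower than the mean (background 43.8% and 28.8%), with a median of 0.67. Against OCI-LY3 the split was 11 and 10 (background 43.5% and 23.4%), against OCI-LY19 17 and 6, and against SUDHL5 14 and 5. POU2AF1, the B cell coactivator of octamer promoters (chr11:111352252-111455630), had 239, 189.8 and 232 FPKM in the HT libraries, against 59.2, 62.4 and 58.2 FPKM in OCI-LY3, 11.97, 17.0 and 14.6 FPKM in OCI-LY19 and 79.2, 79.2 and 78.3 FPKM in SUDHL5. It stood apart and higher, by 1.85 ± 0.11, 3.84 ± 0.11 and 1.46 ± 0.11, and lies in the 110 Mb window of chromosome 11. CD37, a tetraspanin of mature B cells, averaged 125 ± 13.3 FPKM in HT, against 63.1 ± 11.8 in OCI-LY3, 0.784 ± 0.601 in OCI-LY19 and 62.2 ± 0.719 in SUDHL5. IKZF3, the factor Aiolos, averaged 63.6 ± 5.52 FPKM in HT, against 17.0 ± 2.89 in OCI-LY3, 0.129 ± 0.194 in OCI-LY19 and 45.5 ± 0.560 in SUDHL5. CR2, the complement receptor CD21, stood apart and higher at 3.83 ± 0.628 FPKM in HT, against at most 0.650 ± 0.256 in OCI-LY3. The 3 genes lower than the mean were CD24, CD72 and BANK1. CD24, a surface glycoprotein of several B cell stages, had 0.148, 0.299 and 0.0630 FPKM in the HT libraries, against 5.23, 5.48 and 4.75 FPKM in OCI-LY3, 104, 115 and 123 FPKM in OCI-LY19 and 49.3, 48.5 and 49.6 FPKM in SUDHL5. CD72, an inhibitory coreceptor, averaged 1.18 ± 0.316 FPKM in HT, against 18.7 ± 5.30 in OCI-LY3, 8.08 ± 0.496 in OCI-LY19 and 10.8 ± 0.385 in SUDHL5. Both stood apart and lower. MS4A1, which encodes CD20, averaged 76.0 ± 2.82 FPKM in HT, against 386 ± 65.9 in OCI-LY3, 28.5 ± 7.38 in OCI-LY19 and 44.9 ± 1.40 in SUDHL5, lower in HT than in OCI-LY3 and higher than in the other 2 lines.

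Signalling genes below the B cell receptor differed gene by gene. Of 28 tested, 15 were higher and 8 lower than the mean, near the background of 43.8% and 28.8%, with a median of 0.24. RASGRP3, an activator of RAS below phospholipase C, averaged 61.7 ± 0.198 FPKM in HT, against 8.72 ± 1.62 in OCI-LY3, 0.0477 ± 0.0203 in OCI-LY19 and 18.98 ± 0.267 in SUDHL5. It stood apart and higher, by 2.70 ± 0.10, 5.90 ± 0.10 and 1.65 ± 0.10. Its relative RASGRP1 averaged 1.95 ± 0.262 FPKM in HT, against 16.6 ± 1.94 in OCI-LY3, 1.24 ± 0.0977 in OCI-LY19 and 7.39 ± 0.401 in SUDHL5, lower than in OCI-LY3 and SUDHL5. PRKCB, a protein kinase C below the receptor, had 0.00831, 0.0488 and 0.0265 FPKM in the HT libraries, against 1.52, 1.81 and 1.60 FPKM in OCI-LY3, 0.370, 0.335 and 0.427 FPKM in OCI-LY19 and 12.8, 12.5 and 12.4 FPKM in SUDHL5, with HT below every other library. PTPN6, the inhibitory phosphatase SHP-1, averaged 37.6 ± 3.37 FPKM in HT, against 4.05 ± 1.92 in OCI-LY3, 2.44 ± 0.379 in OCI-LY19 and 65.5 ± 0.741 in SUDHL5. The kinases SYK at 80.5 ± 8.38, BTK at 39.7 ± 0.361 and LYN at 44.2 ± 2.70 FPKM were all present in HT.

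Most MHC class II transcripts were lower in HT than in OCI-LY3 and SUDHL5. HLA-DRA, the alpha chain of HLA-DR (chr6:32439842-32445046), had 76.8, 61.9 and 76.4 FPKM in the HT libraries, against 433, 397 and 410.4 FPKM in OCI-LY3, 80.9, 85.2 and 89.8 FPKM in OCI-LY19 and 427, 420.0 and 421 FPKM in SUDHL5. HT lay below all other libraries, far below OCI-LY3 and SUDHL5 and close to OCI-LY19, with differences of -2.52 ± 0.079, -0.25 ± 0.079 and -2.55 ± 0.079 (limma adjusted p = 0.015 against OCI-LY19). The difference from OCI-LY19 was −0.22 without OCI-LY19 replicate 3, which ended its call. HLA-DQA1 averaged 4.09 ± 0.423 FPKM in HT, against 52.5 ± 6.98 in OCI-LY3, 6.20 ± 1.28 in OCI-LY19 and 39.5 ± 0.838 in SUDHL5. HLA-DPA1 averaged 7.24 ± 1.05 FPKM in HT, against 48.2 ± 1.57 in OCI-LY3, 14.2 ± 1.10 in OCI-LY19 and 31.5 ± 0.693 in SUDHL5. These 2 alpha chain genes were lower in HT than in each line, but with the library-name suffix as a covariate HLA-DQA1 did not pass against OCI-LY19, at −0.46. CD74, the invariant chain that guards the groove, averaged 268 ± 22.5 FPKM in HT, against 601 ± 36.1 in OCI-LY3, 244 ± 8.52 in OCI-LY19 and 742 ± 16.7 in SUDHL5. It was lower in HT than in OCI-LY3 and SUDHL5, with a difference of 0.13 ± 0.069 from OCI-LY19 that passed only without HT replicate 3, at 0.20. Of the 16 genes of class II and its regulators, 4 were higher and 12 lower than the mean of the lines, with a median of −0.71. The split was 3 and 12 against OCI-LY3 (median −1.44), 6 and 8 against OCI-LY19 (−0.15) and 3 and 12 against SUDHL5 (−1.47), and the signs held under every scaling tried.

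Regulators and accessory chains differed from each other. CIITA (chr16:10866222-10943021) had 4.43, 4.11 and 3.55 FPKM in the HT libraries, against 6.01, 7.43 and 5.42 FPKM in OCI-LY3, 5.08, 4.98 and 5.12 FPKM in OCI-LY19 and 4.24, 4.26 and 4.45 FPKM in SUDHL5. It was lower in HT than in OCI-LY3, by -0.53 ± 0.10, and than in OCI-LY19, by -0.27 ± 0.10. The second call ended without HT replicate 3 and without OCI-LY19 replicate 1 or 3, at −0.20 to −0.27, and both ended with the library-name suffix as a covariate, at −0.53 and −0.28. Its difference of -0.084 ± 0.10 from SUDHL5 (limma adjusted p = 0.46) passed only with median-of-ratios scaling, at −0.24. RFX5 averaged 29.4 ± 1.60 FPKM in HT, against 24.2 ± 2.94 in OCI-LY3, 44.3 ± 1.64 in OCI-LY19 and 39.5 ± 0.902 in SUDHL5. HLA-DMA, a chain of the peptide editor HLA-DM, averaged 33.0 ± 1.44 FPKM in HT, against 18.6 ± 0.442 in OCI-LY3, 3.94 ± 0.137 in OCI-LY19 and 29.2 ± 1.64 in SUDHL5. It was higher in HT than in OCI-LY3 and OCI-LY19, by 0.80 ± 0.052 and 2.78 ± 0.052. Its difference from SUDHL5, 0.17 ± 0.052, lost its call without SUDHL5 replicate 2, at 0.13, and its sign with median-of-ratios scaling, at −0.023. HLA-DOB, of the HLA-DM inhibitor HLA-DO, was higher than in OCI-LY19 and SUDHL5, by 2.57 ± 0.12 and 0.64 ± 0.12, while its partner HLA-DOA was lower than in OCI-LY3 and SUDHL5, by -2.04 ± 0.094 and -1.46 ± 0.094. HLA-DRB1 averaged 48.5 ± 8.24 FPKM in HT, against 188.4 ± 6.51 in OCI-LY3, 68.2 ± 4.98 in OCI-LY19 and 240.1 ± 1.35 in SUDHL5. HLA-DRB5 averaged 68.7 ± 12.5 FPKM in HT, against 227 ± 12.2 in OCI-LY3, 17.4 ± 2.40 in OCI-LY19 and 266 ± 2.60 in SUDHL5. These are near-identical copies whose reads can be exchanged. The promoter windows of 2 low genes and of HLA-DMA are printed to show that all 3 hold the same box; capitals mark the Y box letters CTGATTGG, bound by NF-Y, found on the gene's own strand 49, 91 and 82 bases before the start of HLA-DRB1 (chr6:32589799-32590098), HLA-DQB1 (chr6:32666608-32666907) and HLA-DMA (chr6:32953048-32953347), all on the minus strand.
HLA-DRB1: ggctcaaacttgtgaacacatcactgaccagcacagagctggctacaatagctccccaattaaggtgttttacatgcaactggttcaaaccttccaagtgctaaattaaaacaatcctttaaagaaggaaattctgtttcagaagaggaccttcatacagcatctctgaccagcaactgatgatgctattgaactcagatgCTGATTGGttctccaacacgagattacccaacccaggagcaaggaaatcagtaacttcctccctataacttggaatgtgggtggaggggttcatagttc
HLA-DQB1: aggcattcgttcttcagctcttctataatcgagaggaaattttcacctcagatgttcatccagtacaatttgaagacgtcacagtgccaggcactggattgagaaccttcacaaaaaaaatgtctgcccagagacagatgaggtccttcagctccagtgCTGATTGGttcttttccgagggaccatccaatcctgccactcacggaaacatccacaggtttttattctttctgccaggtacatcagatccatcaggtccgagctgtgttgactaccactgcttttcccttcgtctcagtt
HLA-DMA: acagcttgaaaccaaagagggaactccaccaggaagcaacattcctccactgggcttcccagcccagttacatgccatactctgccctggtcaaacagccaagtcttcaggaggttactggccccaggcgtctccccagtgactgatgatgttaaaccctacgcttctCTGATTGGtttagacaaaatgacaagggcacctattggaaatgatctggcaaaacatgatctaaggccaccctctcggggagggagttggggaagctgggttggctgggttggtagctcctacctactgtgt
On either strand these letters occur in 1393 of 35116 promoter windows (3.97%), and in 5 of the 14 class II list genes with a window.

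**Figure D4:**
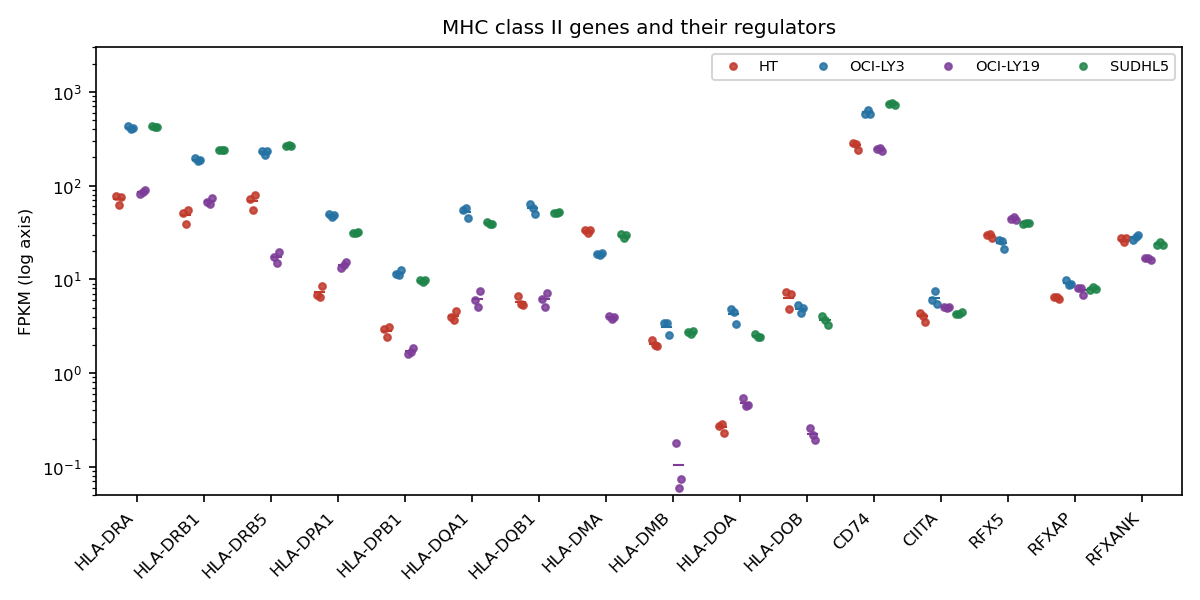
FPKM of the 16 MHC class II genes and regulators in the 12 untreated libraries on a log axis; points are libraries, short lines are means and colours mark the lines, HT first. HLA-DRA sits at 61.9 to 76.8 FPKM in HT and at 397 or above in OCI-LY3 and SUDHL5, whereas CIITA lies between 3.55 and 7.43 FPKM in all 4 lines.

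MHC class I genes divided the other lines. HLA-B averaged 18.8 ± 1.53 FPKM in HT, against 1.29 ± 0.149 in OCI-LY3, 102 ± 11.8 in OCI-LY19 and 44.3 ± 1.62 in SUDHL5. HT was higher than OCI-LY3 and lower than OCI-LY19 and SUDHL5. HLA-C averaged 53.5 ± 5.51 FPKM in HT, against 0.367 ± 0.0709 in OCI-LY3, 115 ± 21.6 in OCI-LY19 and 33.3 ± 0.788 in SUDHL5. Counts of these related genes are uncertain. B2M, the light chain of class I, averaged 32.5 ± 3.77 FPKM in HT, against 50.02 ± 2.005 in OCI-LY3, 100.1 ± 1.89 in OCI-LY19 and 40.5 ± 1.06 in SUDHL5. It was lower in HT than in each line, by -0.61 ± 0.070, -1.60 ± 0.070 and -0.32 ± 0.070, the last of which did not pass on the TPM scale, at −0.16. Of 18 tested class I genes, 8 were higher and 7 lower than the mean, with a median of 0.08 whose sign turned under another scaling. PDIA3, a chaperone of class I loading, was higher in HT than in each, at 238 ± 9.10 FPKM, with differences of 1.10 ± 0.061, 1.67 ± 0.061 and 0.99 ± 0.061.

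Among 15 tested costimulation and checkpoint ligands, 4 were higher and 9 lower than the mean, with a median of −0.62. The split was 6 and 6 against OCI-LY3, 7 and 8 against OCI-LY19, and 4 and 8 against SUDHL5. The medians were −0.05, −0.63 and −0.75 in the same order. CD58, a ligand of CD2 on T cells, averaged 0.146 ± 0.0327 FPKM in HT, against 0.179 ± 0.0473 in OCI-LY3, 23.3 ± 4.12 in OCI-LY19 and 1.57 ± 0.303 in SUDHL5, near 0 in both HT and OCI-LY3. CD83, an activation marker, was lower in HT than in each line at 2.21 ± 0.318 FPKM, by -2.53 ± 0.11, -0.75 ± 0.11 and -1.01 ± 0.11. CD70, the ligand of CD27, averaged 5.96 ± 0.0914 FPKM in HT, against 0.727 ± 0.246 in OCI-LY3, 14.4 ± 1.65 in OCI-LY19 and 95.2 ± 2.95 in SUDHL5. CD80 was higher in HT than in each line, at 1.58 ± 0.188 FPKM, and SLAMF6 at 35.4 ± 2.58 FPKM by 1.09 ± 0.077, 1.55 ± 0.077 and 0.58 ± 0.077. CD274, which encodes PD-L1, averaged below 0.5 FPKM in all 4 lines and was not tested.

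Target genes of NF-kB, the transcription factor family that CD40 and the B cell receptor activate, were mostly lower in HT than in SUDHL5. NFKB2 had 6.55, 6.66 and 4.99 FPKM in the HT libraries, against 4.73, 6.59 and 5.21 FPKM in OCI-LY3, 3.28, 3.73 and 2.35 FPKM in OCI-LY19 and 56.4, 58.7 and 57.1 FPKM in SUDHL5. RELB averaged 4.28 ± 1.10 FPKM in HT, against 7.06 ± 1.05 in OCI-LY3, 2.79 ± 0.485 in OCI-LY19 and 36.8 ± 0.371 in SUDHL5. The pair forms the non-canonical dimer. BIRC3, a target and regulator of the pathway, averaged 26.8 ± 4.33 FPKM in HT, against 2.89 ± 0.687 in OCI-LY3, 0.117 ± 0.0448 in OCI-LY19 and 79.7 ± 2.08 in SUDHL5. HT was lower than SUDHL5 and, for BIRC3, higher than OCI-LY3 and OCI-LY19. Among 19 tested NF-kB targets, 2 were higher and 14 lower than in SUDHL5, with a median of −1.01, against 5 higher and 6 lower than in OCI-LY3 and 10 higher and 6 lower than in OCI-LY19. PLEK, a protein kinase C substrate in that list, had 0.301, 0.229 and 0.0203 FPKM in the HT libraries, against 77.9, 86.6 and 69.5 FPKM in OCI-LY3, 11.1, 7.74 and 9.95 FPKM in OCI-LY19 and 48.9, 51.1 and 50.01 FPKM in SUDHL5, and stood apart and lower. Of 12 tested non-canonical genes, 6 were higher and 4 lower than the mean, and of 23 canonical ones 9 and 10. NFKBIA, the inhibitor IkBa, was lower in HT, at 5.69 ± 0.0948 FPKM, than in OCI-LY19 and SUDHL5, by -1.64 ± 0.085 and -2.01 ± 0.085, and RIPK1 was higher in HT than in each at 16.7 ± 0.909 FPKM.

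Of 18 tested genes of the cytokine pathway through JAK kinases and STAT factors, 1 stood apart. It was IL10RA, which encodes a chain of the interleukin-10 receptor. IL10RB, also in the list, averaged 0.236 FPKM in HT and at most 0.283 FPKM in the other lines, too low to be tested. IL10RA (chr11:117986348-118003037, in the 115 Mb window of chromosome 11) had 54.3, 52.2 and 54.8 FPKM in the HT libraries, against 1.01, 1.56 and 1.19 FPKM in OCI-LY3, 0.0982, 0.00483 and 0 FPKM in OCI-LY19 and 20.3, 20.4 and 19.2 FPKM in SUDHL5. It stood apart and higher, by 4.61 ± 0.082, 5.73 ± 0.082 and 1.39 ± 0.082, although at 24 h it had 29.5, 34.5 and 29.9 FPKM in HT, against 43.5, 41.7 and 42.5 FPKM in SUDHL5, and no longer did so. STAT5A averaged 34.3 ± 1.96 FPKM in HT, against 5.50 ± 0.454 in OCI-LY3, 22.7 ± 0.856 in OCI-LY19 and 6.43 ± 0.230 in SUDHL5. STAT5B averaged 59.3 ± 2.25 FPKM in HT, against 33.0 ± 1.40 in OCI-LY3, 19.4 ± 0.416 in OCI-LY19 and 19.3 ± 0.638 in SUDHL5. Both STAT5 genes were higher in HT than in each line. JAK1, at 21.6 ± 1.45 FPKM in HT, and JAK2, at 3.001 ± 0.164, were also higher than in each, though JAK2 did not pass against OCI-LY19 with the suffix covariate, at 0.21. IL4R, the interleukin-4 receptor, averaged 4.29 ± 0.778 FPKM in HT, against 14.9 ± 1.49 in OCI-LY3, 0.124 ± 0.00963 in OCI-LY19 and 65.0 ± 1.17 in SUDHL5. IL21R, the interleukin-21 receptor, averaged 0.618 ± 0.220 FPKM in HT, against 9.11 ± 2.41 in OCI-LY3, 0.136 ± 0.113 in OCI-LY19 and 6.57 ± 0.126 in SUDHL5. Both receptor genes were lower in HT than in OCI-LY3 and SUDHL5. In all, 8 of 18 tested members were higher and 8 lower than the mean, with 11 higher and 3 lower against OCI-LY3. Of 16 tested interferon-stimulated genes, 5 were higher and 10 lower than the mean (background 43.8% and 28.8%), with a median of −0.50. The split was 6 and 2 against OCI-LY3, 3 and 10 against OCI-LY19, and 1 and 7 against SUDHL5. The medians were 0.12, −1.06 and −0.10 in the same order. OAS1 averaged 0.397 ± 0.0655 FPKM in HT, against 5.87 ± 1.68 in OCI-LY3, 1.43 ± 0.139 in OCI-LY19 and 3.98 ± 0.371 in SUDHL5. OAS2 averaged 0.980 ± 0.227 FPKM in HT, against 4.88 ± 0.513 in OCI-LY3, 12.2 ± 0.350 in OCI-LY19 and 1.54 ± 0.0887 in SUDHL5. Both OAS genes were lower in HT than in each line, but OAS1 did not pass against OCI-LY19 with the suffix covariate, at −0.73, nor OAS2 against SUDHL5 with its libraries averaged into 1, at −0.37.

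CXCR4 and S100A4 were the homing and motility genes that stood apart, both lower in HT. CXCR4, the receptor that draws B cells to the dark zone and to bone marrow, had 4.05, 3.51 and 3.99 FPKM in the HT libraries, against 21.97, 12.9 and 25.2 FPKM in OCI-LY3, 21.1, 17.8 and 23.2 FPKM in OCI-LY19 and 245, 235 and 233 FPKM in SUDHL5. It stood apart and lower, by -2.07 ± 0.19, -2.16 ± 0.19 and -5.62 ± 0.19. S100A4, a calcium-binding protein of motile cells, averaged 0.444 ± 0.0673 FPKM in HT, against 6.13 ± 0.957 in OCI-LY3, 44.1 ± 16.8 in OCI-LY19 and 7.85 ± 1.503 in SUDHL5. Of 10 tested S100, annexin, vimentin and galectin genes, 2 were higher and 8 lower than the mean, with a median of −1.05, which was −2.52 against OCI-LY19 and 0.07 against OCI-LY3. ANXA2 and ANXA5 were the 2 higher ones, and ANXA5, which binds exposed phosphatidylserine, averaged 44.1 ± 3.40 FPKM in HT, against 16.3 ± 1.62 in OCI-LY3, 6.27 ± 1.06 in OCI-LY19 and 31.0 ± 0.221 in SUDHL5. VIM, the filament protein vimentin, averaged 0.237 ± 0.0942 FPKM in HT, against 0.121 ± 0.0891 in OCI-LY3, 220.2 ± 31.9 in OCI-LY19 and 0.569 ± 0.0517 in SUDHL5. CD44, a hyaluronan receptor, averaged 0.133 ± 0.0822 FPKM in HT, against 0.104 ± 0.118 in OCI-LY3, 37.5 ± 4.59 in OCI-LY19 and 0.108 ± 0.0194 in SUDHL5. Both are present in OCI-LY19 and near 0 in the other 3 lines. The T and NK cell marker sum was 24.82 to 28.34 FPKM in OCI-LY19 and 113.7 to 119.7 FPKM in SUDHL5. Most of it was the single gene TRAC, at 18.85 FPKM in OCI-LY19 and 112.3 FPKM in SUDHL5. Thus the sum was highest in SUDHL5, where VIM and CD44 were near 0. Whether T or NK cells have a part in VIM and CD44 levels was not tested. Of 15 tested integrin and adhesion genes, 6 were higher and 8 lower than the mean, and of 6 chemokine and homing genes 1 and 3.

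Genes of arrest and death that DNA damage induces were more often lower than higher beside the mean of the other lines. CDKN1A, the inhibitor p21 (chr6:36676460-36687339), had 0.123, 0.167 and 0.163 FPKM in the HT libraries, against 0.395, 0.620 and 1.21 FPKM in OCI-LY3, 26.2, 24.8 and 20.5 FPKM in OCI-LY19 and 13.6, 12.8 and 13.2 FPKM in SUDHL5. HT lay below every other library, by -0.57 ± 0.14, -4.42 ± 0.14 and -3.62 ± 0.14. The difference from OCI-LY3 did not pass with the library-name suffix as a covariate, at −0.75. At 24 h in doxorubicin CDKN1A had 0.229, 0.218 and 0.170 FPKM in HT, against 5.03, 3.93 and 7.90 in OCI-LY3, 545, 490.1 and 536 in OCI-LY19 and 228, 243 and 236 in SUDHL5. BAX, a pore-forming death protein, averaged 25.7 ± 4.88 FPKM in HT, against 32.4 ± 4.77 in OCI-LY3, 47.0 ± 1.51 in OCI-LY19 and 36.2 ± 0.104 in SUDHL5, and was lower in HT than in OCI-LY19 and SUDHL5, the second of which did not pass with its libraries averaged into 1, at −0.49. MDM2, a ubiquitin ligase, averaged 6.26 ± 0.271 FPKM in HT, against 9.17 ± 0.979 in OCI-LY3, 12.5 ± 1.76 in OCI-LY19 and 9.33 ± 0.328 in SUDHL5, and was lower in HT than in each line. FAS, a death receptor, averaged 0.150 ± 0.0189 FPKM in HT, against 0.0684 ± 0.0588 in OCI-LY3, 2.72 ± 0.261 in OCI-LY19 and 3.78 ± 0.165 in SUDHL5. Of 23 tested genes of this kind, 3 were higher and 13 lower than the mean (background 43.8% and 28.8%), with a median of −0.44; the split was 7 and 8 against OCI-LY3, 5 and 12 against OCI-LY19 and 3 and 17 against SUDHL5.

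Among cell death and cell cycle genes, the balance varied from list to list. Of 16 tested BCL2 family genes with XIAP, 6 were higher and 10 lower than the mean (background 43.8% and 28.8%), with a median of −0.49. Against OCI-LY3 the split was 6 and 8, against OCI-LY19 5 and 7, and against SUDHL5 2 and 9. The medians were −0.10, −0.03 and −0.44 in the same order. BCL2L1, which encodes BCL-XL, averaged 20.6 ± 2.32 FPKM in HT, against 12.2 ± 0.703 in OCI-LY3, 10.3 ± 0.607 in OCI-LY19 and 7.34 ± 0.316 in SUDHL5. It was higher in HT than in each line, by 0.71 ± 0.080, 0.93 ± 0.080 and 1.37 ± 0.080. MCL1 averaged 89.2 ± 1.26 FPKM in HT, against 70.3 ± 5.22 in OCI-LY3, 78.4 ± 4.31 in OCI-LY19 and 170.5 ± 2.40 in SUDHL5. BID, which acts against survival, was lower in HT than in each line, by -0.75 ± 0.082, -1.07 ± 0.082 and -0.42 ± 0.082. Among 14 tested death receptor and caspase genes 6 were higher and 6 lower, and CASP9, the initiator caspase of the apoptosome, was higher in HT than in each, at 4.65 ± 0.0836 FPKM. In G1 control, 6 of 18 were higher and 7 lower. CCND3, cyclin D3, averaged 90.1 ± 11.6 FPKM in HT, against 15.1 ± 1.80 in OCI-LY3, 79.9 ± 14.8 in OCI-LY19 and 55.6 ± 0.849 in SUDHL5. CDKN1B, the inhibitor p27, averaged 6.29 ± 0.417 FPKM in HT, against 0.887 ± 0.393 in OCI-LY3, 30.5 ± 0.421 in OCI-LY19 and 29.5 ± 2.24 in SUDHL5.

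Because the series later exposed these lines to doxorubicin, the untreated levels of genes that transport, reduce or bind anthracyclines are given. TOP2A, the enzyme that the drug poisons, averaged 73.1 ± 6.34 FPKM in HT, against 87.0 ± 17.8 in OCI-LY3, 110.0 ± 15.8 in OCI-LY19 and 102 ± 1.96 in SUDHL5. TOP2B, its paralog, averaged 91.7 ± 4.29 FPKM in HT, against 59.7 ± 5.24 in OCI-LY3, 236 ± 27.6 in OCI-LY19 and 135 ± 2.26 in SUDHL5. CBR1, a carbonyl reductase of anthracyclines, averaged 3.42 ± 0.270 FPKM in HT, against 0.0465 ± 0.0557 in OCI-LY3, 0.182 ± 0.0506 in OCI-LY19 and 1.74 ± 0.259 in SUDHL5. It was higher in HT than in each line, by 2.08 ± 0.081, 1.90 ± 0.081 and 0.69 ± 0.081. TDP2, which clears topoisomerase II from DNA ends, was higher in HT than in each at 34.0 ± 1.71 FPKM, and the exporter ABCC1 lower than in each at 4.96 ± 0.290 FPKM, by -1.25 ± 0.085, -0.94 ± 0.085 and -0.39 ± 0.085. Of 17 tested genes, 4 were higher and 7 lower than the mean, and the sign of the median turned under another scaling. Among 15 tested targets of the antioxidant factor NRF2, 4 were higher and 3 lower. SLC7A11, the cystine importer, averaged 5.59 ± 0.629 FPKM in HT, against 1.42 ± 0.0905 in OCI-LY3, 4.003 ± 1.57 in OCI-LY19 and 1.01 ± 0.0105 in SUDHL5, and was higher in HT than in OCI-LY3 and SUDHL5. HMOX1, heme oxygenase, averaged 9.67 ± 1.02 FPKM in HT, against 0.0385 ± 0.0529 in OCI-LY3, 2.31 ± 2.10 in OCI-LY19 and 15.5 ± 1.09 in SUDHL5.

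Hypoxia, glycolysis and sterol genes were mostly lower in HT than in SUDHL5. The medium held 20% serum for HT, against 15% for SUDHL5 and OCI-LY19, and the part of serum was not tested. DDIT4, an mTOR inhibitor induced by low oxygen, had 16.2, 22.2 and 39.4 FPKM in the HT libraries, against 27.4, 27.7 and 36.1 FPKM in OCI-LY3, 24.6, 28.5 and 22.9 FPKM in OCI-LY19 and 415, 417 and 403 FPKM in SUDHL5. VEGFA, a hypoxia-induced growth factor, averaged 0.621 ± 0.0359 FPKM in HT, against 2.19 ± 0.314 in OCI-LY3, 2.59 ± 0.451 in OCI-LY19 and 19.6 ± 0.862 in SUDHL5. CA9, a carbonic anhydrase, was listed at 0 in HT and averaged 11.2 ± 0.565 FPKM in SUDHL5. Of 14 tested hypoxia genes, 2 were higher and 12 lower than in SUDHL5, with a median of −1.92, but 7 were higher and 2 lower than in OCI-LY3 and 7 higher and 5 lower than in OCI-LY19. Of 24 tested glycolysis genes, 2 were higher and 20 lower than in SUDHL5, with a median of −1.34, and 9 and 9 against OCI-LY3 and 8 and 7 against OCI-LY19. GAPDH averaged 1883 ± 186 FPKM in HT, against 1907 ± 151 in OCI-LY3, 1396 ± 73.4 in OCI-LY19 and 5437 ± 88.9 in SUDHL5. PFKFB4, which makes an activator of glycolysis, averaged 2.62 ± 1.62 FPKM in HT, against 0.646 ± 0.113 in OCI-LY3, 1.96 ± 0.507 in OCI-LY19 and 51.5 ± 1.54 in SUDHL5. HK2, the hexokinase of growing tumors, was lower in HT than in each line, by -1.15 ± 0.073, -0.96 ± 0.073 and -1.15 ± 0.073. SLC16A3, a lactate exporter, stood apart and higher, at 1.57 ± 0.317 FPKM in HT.

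Sterol synthesis split the lines likewise. Of 22 tested genes, 11 were higher and 2 lower than in OCI-LY3, 15 and 4 against OCI-LY19, and 2 and 17 against SUDHL5, with medians of 0.32, 0.51 and −0.72. HMGCS1, an early enzyme of the pathway, averaged 27.0 ± 5.73 FPKM in HT, against 13.3 ± 1.40 in OCI-LY3, 13.4 ± 1.25 in OCI-LY19 and 58.0 ± 0.279 in SUDHL5. INSIG1, a sterol sensor, averaged 26.1 ± 7.87 FPKM in HT, against 28.3 ± 4.08 in OCI-LY3, 18.1 ± 0.997 in OCI-LY19 and 103 ± 1.61 in SUDHL5. Serine and amino acid genes under the stress factor ATF4 were mostly lower in HT, with 1 higher and 11 lower of 14 against the mean and a median of −0.61. The split was 3 and 7 against OCI-LY3, 1 and 10 against OCI-LY19, and 2 and 11 against SUDHL5. SHMT2, the mitochondrial serine hydroxymethyltransferase, had 31.8, 27.9 and 29.4 FPKM in the HT libraries, against 111, 90.5 and 113 FPKM in OCI-LY3, 64.8, 72.7 and 84.0 FPKM in OCI-LY19 and 148, 144 and 140.2 FPKM in SUDHL5. It stood apart and lower, by -1.78 ± 0.10, -1.28 ± 0.10 and -2.24 ± 0.10. ATF4 itself averaged 115 ± 7.36 FPKM in HT, against 102 ± 12.3 in OCI-LY3, 148 ± 9.78 in OCI-LY19 and 106 ± 2.47 in SUDHL5.

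Mitochondrially encoded mRNAs were mostly lower in HT than the mean of the lines. Of 13 mitochondrially encoded mRNAs, 12 were lower and 1, MT-CYB, was higher than the mean, with a median of −0.52; without HT replicate 2, MT-CYB no longer passed, at 0.19. MT-CO1, a subunit of cytochrome oxidase, averaged 6089 ± 589 FPKM in HT, against 6714 ± 640.2 in OCI-LY3, 6622 ± 583 in OCI-LY19 and 9722 ± 302 in SUDHL5. Among 24 tested nuclear genes of the respiratory chain 3 were higher and 7 lower, with a median of −0.03. In the tricarboxylic acid cycle, 9 of 21 genes were higher and 6 lower. IDH2, mitochondrial isocitrate dehydrogenase, had 3.99, 4.27 and 4.28 FPKM in the HT libraries, against 10.7, 8.55 and 13.4 FPKM in OCI-LY3, 59.9, 82.9 and 79.0 FPKM in OCI-LY19 and 16.6, 15.5 and 14.9 FPKM in SUDHL5. It was the cycle gene that stood apart and lower, by -1.18 ± 0.15, -3.84 ± 0.15 and -1.68 ± 0.15. With the library-name suffix as a covariate, the difference from OCI-LY3 was −0.75 and did not pass. SDHD stood apart and higher, by 1.16 ± 0.053, 1.20 ± 0.053 and 1.498 ± 0.053, in the chromosome 11 window.

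Growth and genome maintenance genes differed line by line. MYC had 46.5, 48.6 and 33.7 FPKM in the HT libraries, against 115, 126 and 131 FPKM in OCI-LY3, 169, 161 and 189.5 FPKM in OCI-LY19 and 23.3, 23.5 and 21.5 FPKM in SUDHL5, lower in HT than in OCI-LY3 and OCI-LY19 and higher than in SUDHL5. Of 19 tested MYC and ribosome biogenesis genes, 15 were higher and 1 lower than in SUDHL5, and 0 higher and 13 lower than in OCI-LY19. RRM2, a subunit of the enzyme that makes deoxynucleotides, had 14.0, 13.9 and 12.9 FPKM in the HT libraries, against 53.8, 43.8 and 55.1 FPKM in OCI-LY3, 35.9, 37.1 and 40.0 FPKM in OCI-LY19 and 31.7, 32.6 and 31.8 FPKM in SUDHL5. It was the replication gene that stood apart and lower, by -1.83 ± 0.080, -1.41 ± 0.080 and -1.18 ± 0.080. RRM1, the other subunit, averaged 72.3 ± 2.65 FPKM in HT, against 52.9 ± 6.77 in OCI-LY3, 57.8 ± 2.63 in OCI-LY19 and 44.0 ± 0.434 in SUDHL5. It was higher in HT than in each line, a call that ended against OCI-LY3 and OCI-LY19 with median-of-ratios scaling. Of 25 replication genes, 10 were higher and 6 lower than the mean, and of 24 tested mitosis genes 10 and 4, with CDK1 at 93.1 ± 5.81 FPKM in HT, against 45.3 ± 5.21 in OCI-LY3, 31.8 ± 1.69 in OCI-LY19 and 49.1 ± 1.52 in SUDHL5. Break repair and checkpoint genes had 15 higher and 5 lower of 27 (background 43.8% and 28.8%), with a median of 0.27, and 19 higher and 1 lower against SUDHL5 (background 43.0% and 28.7%); with median-of-ratios scaling the split against the mean was 12 and 5. CHEK2, a checkpoint kinase, averaged 17.9 ± 0.314 FPKM in HT, against 9.87 ± 0.298 in OCI-LY3, 9.31 ± 0.353 in OCI-LY19 and 8.82 ± 0.323 in SUDHL5. It was higher in HT than in each line.

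Mismatch repair, chromatin and deaminase genes completed the lists. Of 8 mismatch repair genes 5 were higher and 2 lower than the mean. MSH6, a mismatch recognition protein, was among the lower ones and averaged 29.8 ± 0.290 FPKM in HT, against 34.96 ± 1.30 in OCI-LY3, 41.4 ± 2.64 in OCI-LY19 and 74.5 ± 1.08 in SUDHL5. Of 19 chromatin modifiers mutated in lymphoma, 8 were higher and 7 lower. HDAC1, a histone deacetylase, averaged 206 ± 4.82 FPKM in HT, against 120.4 ± 6.61 in OCI-LY3, 41.5 ± 2.60 in OCI-LY19 and 106 ± 2.39 in SUDHL5. CREBBP, an acetyltransferase, averaged 13.2 ± 1.11 FPKM in HT, against 9.80 ± 0.307 in OCI-LY3, 9.01 ± 0.661 in OCI-LY19 and 3.23 ± 0.112 in SUDHL5. Both were higher in HT than in OCI-LY19 and SUDHL5, and the HT mean of each also lay above that of OCI-LY3. EZH2, the methyltransferase of germinal center cells, averaged 29.5 ± 0.597 FPKM in HT, against 36.6 ± 2.77 in OCI-LY3, 35.3 ± 1.29 in OCI-LY19 and 25.03 ± 0.744 in SUDHL5. All 4 tested APOBEC3 genes were lower than the mean, and APOBEC3G, at 0.0467 ± 0.0405 FPKM in HT, stood apart with APOBEC3C.

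**Figure D5:**
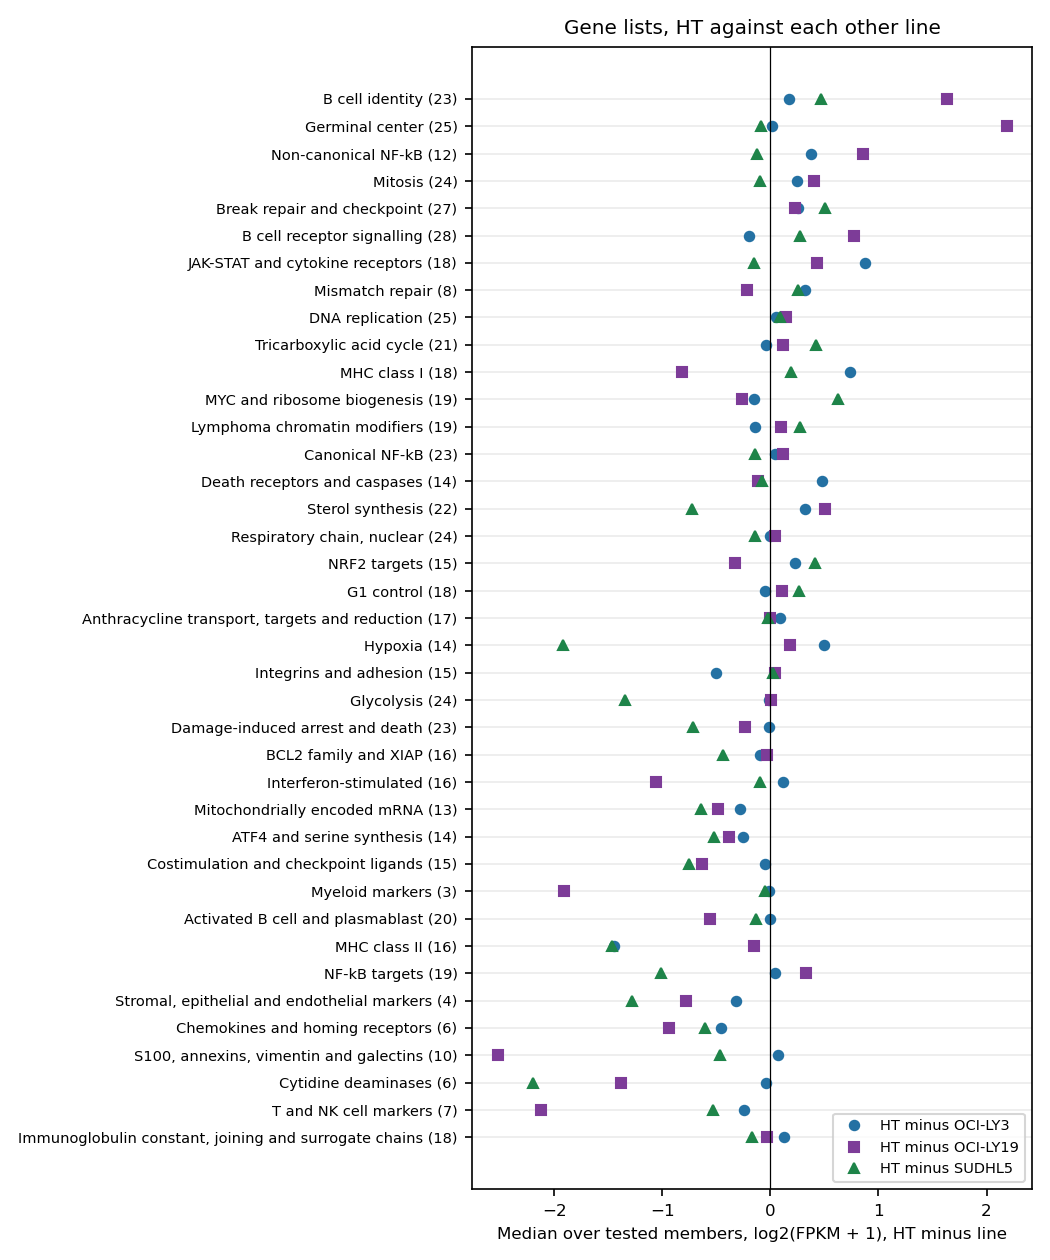
Median log2 difference of HT minus OCI-LY3 (circles), OCI-LY19 (squares) and SUDHL5 (triangles) over the tested members of each gene list, with the number tested in brackets. Hypoxia lies at −1.92 against SUDHL5 and above 0 against the other lines, while MHC class II lies below 0 against all 3.

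Which genes led a comparison depended on the line. Against OCI-LY3 the largest positive differences were those of IGLL1, ACTL8 and C11orf97 and the largest negative ones those of PLEK, BASP1 and LSP1. BASP1, a membrane-bound protein of growth cones, averaged 0.211 ± 0.135 FPKM in HT, against 66.1 ± 13.7 in OCI-LY3, 0.171 ± 0.172 in OCI-LY19 and 224 ± 8.76 in SUDHL5. LSP1, an actin-binding protein of leukocytes, averaged 0.862 ± 0.284 FPKM in HT, against 75.6 ± 1.73 in OCI-LY3, 0.508 ± 0.403 in OCI-LY19 and 106 ± 7.63 in SUDHL5. Neither differed between HT and OCI-LY19 past the test. Against OCI-LY19 the leaders were ACTL8, JCHAIN and SERPINA9, higher, and VIM, VPREB1 and PDLIM1, lower; PDLIM1, a cytoskeletal adaptor, stood apart from each line with 0.0618, 0.0519 and 0.131 FPKM in the HT libraries, against 5.30, 6.02 and 5.34 FPKM in OCI-LY3, 126, 137 and 162 FPKM in OCI-LY19 and 44.4, 41.9 and 39.5 FPKM in SUDHL5. Against SUDHL5 they were ACTL8, IGLL1 and C11orf97, higher, and BASP1, CHI3L2 and WNT10A, lower. CHI3L2, a chitinase-like secreted protein, averaged 0.201 ± 0.0721 FPKM in HT, against 10.2 ± 1.31 in OCI-LY3, 0.524 ± 0.147 in OCI-LY19 and 161 ± 2.80 in SUDHL5. WNT10A, a Wnt ligand, averaged 0.508 ± 0.0315 FPKM in HT, against 2.35 ± 0.329 in OCI-LY3, 0.00769 ± 0.00691 in OCI-LY19 and 114 ± 2.39 in SUDHL5. Among the genes lower in HT in these 3 comparisons, PLEK and PDLIM1 stood apart from each line.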

How the data were processed

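Poly(A) RNA was sequenced per the labels' protocols (NEBNext Ultra II Directional, NextSeq 500). The submitters' processing notes name Trimmomatic, STAR, featureCounts and hg38; versions, annotation release and strand setting are not stated in the sources used here, so overlapping genes are uncertain. The authors deposited FPKM values, 1 column per library, for 60656 genes, of which 60401 IDs matched a symbol in the reference's table of gene names. With GENCODE 29 gene lengths, each nonzero value was a whole read number to within 0.01 (100.00%); for 18974 genes with another length, the length that gave whole reads was solved, and 2 genes could not be. The read totals given above are those implied by the FPKM scale of each library. The recovered reads summed to slightly less, at 21782441, 25936368 and 30745298 in the HT libraries. Values were taken as log2(FPKM + 1), genes with at least 1 FPKM in at least 3 libraries (15650) were kept, and 1 limma model (limma 3.58.1, R 4.3.3; trend, 8 residual degrees of freedom) was fitted to the 12 libraries, with Benjamini-Hochberg adjustment over all genes. The procedure was tested on simulated data. The 24 h libraries were fitted alone, on 16882 genes.

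Named genes were the 12 highest and 12 lowest by their smallest difference from any line, among 134 and 41 that stood apart without overlap and reached 10 FPKM; 3 in each direction per line; and members of 40 lists of 752 genes in all. Unnamed, clone-based, immunoglobulin segment, pseudogene and sex-linked marker genes were left out of the first 2 rules. Members and lists were chosen with earlier results of these data known. Replicate libraries of SUDHL5 differed least, with a chi-square per gene of 1.92 to 2.26, against 7.88 to 15.3 in HT, 12.5 to 28.3 in OCI-LY3 and 14.0 to 22.5 in OCI-LY19, all above sampling noise. Alternatives were the pseudocount, filter, scaling, replicate block, suffix covariate, recovered reads, all 24 libraries and left-out libraries or lines. Some genes of the lists are counted but not reported here.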

Additional observations from a re-analysis of the deposited data

How the results depend on the processing

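Counts of genes called moved by less than 1.5 times under most alternatives. The 12 HT-high and 12 HT-low genes of the naming rule stood apart in the same direction under every alternative in which this was counted. Where a line was left out, this means apart from the remaining lines. These genes were chosen for large margins in the same libraries, so the result is a description only. A filter at 5 FPKM, which tests fewer genes, left 2641 genes lower than the mean, 4381 higher than OCI-LY3, 2913 lower than OCI-LY19, 2829 lower than SUDHL5 and 275 apart and higher. Genes apart from each line, 455 higher and 218 lower, are sensitive to the scale: a pseudocount of 0.1 gave 483 lower, the TPM scale 692 higher and 346 lower, and voom on recovered reads 705 and 565. Requiring fewer lines gave 859 and 449 without SUDHL5 and, in a setting chosen after seeing the data, 694 and 459 without OCI-LY3. The library-name suffix as a covariate, which leaves out SUDHL5, gave 4012 genes higher than the mean, 3758 higher and 2368 lower than OCI-LY3, 798 and 471 apart, and 167 gene list members lower, against 270. Median-of-ratios scaling left 3 of the 6 chromosome windows.

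Leaving out each library in turn gave 6370 to 6935 genes higher and 4226 to 4554 lower than the mean. The ranges were 6355 to 6868 and 3438 to 3688 against OCI-LY3, 5634 to 6203 and 4453 to 4790 against OCI-LY19, and 6321 to 6848 and 4170 to 4608 against SUDHL5. Genes apart numbered 445 to 467 higher and 211 to 221 lower, list members 207 to 222 higher and 254 to 276 lower, and windows 6 throughout.

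Replicate numbers are shared by the lines, but not every pair of same-numbered libraries deviated together: over 18 pairs the correlation of their deviations ran from −0.18 to 0.31, with 5 over 0.1. Library names of replicate 3 of HT, OCI-LY3 and OCI-LY19 also share a prefix, and their 3 correlations were 0.11, 0.19 and 0.28. Those of replicate 1, which share another, had −0.16, 0.12 and −0.14. For replicate 2, HT and OCI-LY3 share a prefix and had the highest correlation, 0.31, while OCI-LY19 has a different prefix. A block by replicate number therefore does not follow the prefixes throughout. With the replicate number as a block, 6862 genes were higher and 4502 lower than the mean, 6814 and 3645 against OCI-LY3, 6021 and 4652 against OCI-LY19, 6739 and 4492 against SUDHL5, 456 and 218 were apart, and 216 and 270 list members passed. The block changed no call of a gene named here.

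Of 5952 recomputed values of single genes, 46 lost their call, 3 gained one and 3 changed sign. The sign changed for HLA-DMA against SUDHL5 with median-of-ratios scaling (−0.023), and for ANXA2 against the mean with the suffix covariate (−0.076) and without OCI-LY3 (−0.21). With the suffix covariate, calls also ended against OCI-LY3 for BCL6, CDKN1A, CIITA, IDH2, LMO2, RRM1 and TSC22D3, and against OCI-LY19 for CIITA, HLA-DQA1, HLA-DRA, JAK2, OAS1 and RRM1. With the SUDHL5 libraries averaged into 1 sample, calls against SUDHL5 ended for BAX, BCL6, HLA-DMA and OAS2 and that of CIITA against OCI-LY19, and on the TPM scale for B2M. Apart from settings that leave out samples or lines, the cause was not tested. Values below about 1 FPKM rest on few reads, and the log2(FPKM + 1) scale understates changes there. Whether small differences at such levels could be detected was not tested.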

Other observations

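FKBP5 and TXNIP, both low in HT as described above, are known to answer to glucocorticoid hormone, which serum contains. Further genes of this kind were chosen after their values were seen. NR3C1, the glucocorticoid receptor (chr5:143277931-143435512), had 13.8, 16.4 and 14.6 FPKM in the HT libraries, against 13.2, 15.4 and 11.1 FPKM in OCI-LY3, 35.8, 36.3 and 35.5 FPKM in OCI-LY19 and 31.0, 30.2 and 30.7 FPKM in SUDHL5. HT was lower than OCI-LY19 and SUDHL5, and its difference of 0.17 ± 0.094 from OCI-LY3 (limma adjusted p = 0.14) passed only without OCI-LY3 replicate 2, at 0.27. SGK1, a kinase induced by steroids, had 0.101, 0.235 and 0.124 FPKM in the HT libraries, against 0.964, 1.82 and 1.28 FPKM in OCI-LY3, 1.84, 1.62 and 1.18 FPKM in OCI-LY19 and 13.2, 12.7 and 12.001 FPKM in SUDHL5. It was lower in HT than in each line, by -1.01 ± 0.13, -1.14 ± 0.13 and -3.56 ± 0.13. TSC22D3, the glucocorticoid-induced leucine zipper protein, did not share that pattern: it averaged 4.18 ± 0.940 FPKM in HT, against 2.16 ± 0.483 in OCI-LY3, 0.409 ± 0.0146 in OCI-LY19 and 16.4 ± 1.22 in SUDHL5, higher in HT than in OCI-LY3 and OCI-LY19 and lower than in SUDHL5. With the library-name suffix as a covariate, the difference from OCI-LY3 did not pass, at 0.77. The serum content was 20% for HT and OCI-LY3, against 15% for OCI-LY19 and SUDHL5, and its part was not tested.

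A few marker genes of other cell types were present in HT or in other lines. CD33, a sialic acid-binding receptor of myeloid cells (chr19:51225064-51243860), had 8.37, 9.44 and 8.55 FPKM in the HT libraries, against 0.00639, 0.0190 and 0 FPKM in OCI-LY3, 0.0854, 0.0914 and 0.0513 FPKM in OCI-LY19 and 0, 0.00645 and 0 FPKM in SUDHL5. It stood apart and higher in HT, by 3.28 ± 0.054, 3.18 ± 0.054 and 3.29 ± 0.054. It was the 1 myeloid marker of 3 tested that was higher in HT, and LYZ was listed at 0 in all HT libraries. Of 7 tested T and NK cell markers 1 was higher and 6 lower than the mean of the lines. The higher one, LCK, a kinase that B cell lymphomas can carry, averaged 46.1 ± 2.76 FPKM in HT, against 53.1 ± 9.60 in OCI-LY3, 0.346 ± 0.221 in OCI-LY19 and 31.3 ± 1.94 in SUDHL5. TRAC, a T cell receptor constant gene, averaged 3.62 ± 0.984 FPKM in HT, against 4.41 ± 0.639 in OCI-LY3, 18.9 ± 2.31 in OCI-LY19 and 112 ± 3.03 in SUDHL5. GZMA, a granule protease, was listed at 0 in HT and OCI-LY3 and averaged 46.2 ± 8.10 FPKM in OCI-LY19. All 4 tested stromal, epithelial and endothelial markers were lower in HT than the mean. DCN, a matrix proteoglycan, averaged 0.0243 ± 0.0238 FPKM in HT, against 3.86 ± 0.630 in OCI-LY3, 0.0185 ± 0.0295 in OCI-LY19 and 6.66 ± 0.145 in SUDHL5.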
